A study of Mus musculus with 14 samples.

Results

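The interferon-stimulated genes described here are 34 genes that cells switch on after interferon signalling, together with the factors that carry that signal, and their RNA was measured in whole mouse kidneys. They were chosen by name: each is a row of both deposited tables whose gene symbol is on the list, and all 34 were found among the 23682 genes that the tables share. For Ddx58, which the tables list under the name Rigi, the match was by gene identifier. All 34 also passed the filter on low counts. The measurement was bulk RNA sequencing of 14 kidneys, 1 library per mouse. The control group was 4 mice with the Actin-rtTA+ transgene alone. The disease model was i-TERTci (actin-rtTA+;TetOp-TERTci+), in which doxycycline turns on TERTci, a catalytically inactive telomerase reverse transcriptase, in all tissues, since an actin promoter drives its regulator rtTA. Such mice are heterozygous for each transgene, and 5 received DMSO and 5 received GSK2830371. All 3 groups drank doxycycline. DMSO is the vehicle, and GSK2830371 is a selective inhibitor of the phosphatase WIP1, the product of Ppm1d. The i-TERTci mice develop collapsing glomerulopathy, a proteinuric kidney disease, and daily intraperitoneal injections began once proteinuria was high, at about day 15. No injection is recorded for the controls, which also lack the TetOp-TERTci transgene, so transgene, disease and vehicle cannot be told apart in a comparison with control. Kidneys were taken after 30 days of doxycycline in the controls, 29 to 38 days in the DMSO group and 28 to 49 days in the GSK2830371 group. The animals were adults, and their sex is not in the labels.

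Interferons are secreted proteins that announce infection or stray nucleic acid. Sensors such as RIG-I (Ddx58), MDA5 (Ifih1) and cGAS detect foreign or misplaced RNA and DNA and activate IRF3 and IRF7, which turn on interferon genes. Secreted interferon binds its receptors, and the receptor kinases activate a complex with STAT2 and IRF9, which binds a DNA element, the interferon-stimulated response element, at the start of target genes. The products of those genes block viral translation, entry and replication, and some of them feed back on the pathway. Type II interferon, or interferon gamma, acts through another element, the gamma-activated site. In kidney, interferon signalling is known for its link to collapsing glomerular disease in people given interferon or carrying viral infections.

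The DNA at the start of these genes was examined because the members share a known control element. RefSeq promoter windows (GRCm38.p6, 250 bases before to 50 after each start) were at hand for 27 of the 34 members. Dhx58, Usp18, Oas2, Mx1, Mx2, Ifi27 and Parp14 had none. The core of the interferon-stimulated response element was searched as TTTCNNTTTC on either strand, which reads GAAANNGAAA in the other direction. It was present in 15 of the 27 members (55.6%), against 3.99% of the 27025 genes in the table. The gamma-activated site, searched as TTCNNNGAA, which is its own reverse complement, was present in 7 of 27 (25.9%), against 9.55% of all genes. A match is a run of letters and says nothing of whether a factor binds there. The stretches below show the matches of the 15 members in capitals, 5′ to 3′ on the gene's own strand. Where capitals run past 10 letters, matches overlap.
Ddx58 (chr4:40239804-40239833, minus strand): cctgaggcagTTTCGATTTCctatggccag
Ifih1 (chr2:62646206-62646233, minus strand): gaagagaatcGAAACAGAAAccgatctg
Stat2 (chr10:128270266-128270295, plus strand): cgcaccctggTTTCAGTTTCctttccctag
Isg15 (chr4:156200865-156200906, minus strand): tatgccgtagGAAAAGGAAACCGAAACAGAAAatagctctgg
Ifit1 (chr19:34640775-34640823, plus strand): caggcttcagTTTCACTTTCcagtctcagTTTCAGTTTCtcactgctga
Ifit3 (chr19:34583363-34583426, plus strand): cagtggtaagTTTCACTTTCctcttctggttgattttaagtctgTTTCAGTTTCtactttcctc
Oas1a (chr5:120907517-120907546, minus strand): gGAAATGGAAACTGAAAatctacttcccat
Oas3 (chr5:120777715-120777744, minus strand): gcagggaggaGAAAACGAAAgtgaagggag
Gbp2 (chr3:142620594-142620623, plus strand): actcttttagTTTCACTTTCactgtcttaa
Gbp3 (chr3:142559989-142560024, plus strand): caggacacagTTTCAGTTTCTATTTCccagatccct
Gbp7 (chr3:142530273-142530302, plus strand): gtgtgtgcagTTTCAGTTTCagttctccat
Bst2 (chr8:71537577-71537612, minus strand): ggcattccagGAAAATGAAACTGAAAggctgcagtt
Ifitm2 (chr7:140955988-140956017, minus strand): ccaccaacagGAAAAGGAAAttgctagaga
Ifitm3 (chr7:141010714-141010743, minus strand): gGAAAAGGAAActtctgaGAAACCGAAAct
Rsad2 (chr12:26456553-26456582, minus strand): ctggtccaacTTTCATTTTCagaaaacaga
In Ddx58, Ifih1 and Ifitm3 the matches lie just after the start, in the transcribed part of the first exon, and in the other 12 they lie upstream of it. Isg15 has 3 overlapping matches within a run of 22 capitals, and Ifit1 and Ifit3 have 2 separate ones each. Of the 12 members that had a window and changed in at least 1 comparison below, 5 held a match. Of the 15 with a window that changed in none, 10 held a match.

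The libraries held 47.2 M to 64.6 M reads in genes. Mitochondrial genes took 14.4% to 24.2% of the reads in the controls and 4.95% to 9.52% in the i-TERTci kidneys. Kidney identity was clear from Lrp2, the proximal tubule endocytic receptor, at 12352 normalised reads or more in each library. Tert, which includes the TERTci transgene, stood at 117 to 183 in the controls, 574 to 2732 with DMSO and 231 to 2546 with GSK2830371. Xist, a transcript of the inactive X chromosome, was high in all 4 controls but in only 2 of 5 DMSO libraries (replicates 2 and 5) and 3 of 5 GSK2830371 libraries (replicates 2, 3 and 4). Comparisons with control were therefore also made within the Xist-positive libraries. Because these are whole organs, fewer cells of a type and less RNA per cell cannot be told apart.

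The interferon-stimulated genes did not move as a block in the diseased kidneys. Against control, 3 members rose in the DMSO group (Irf1, Trim25 and Parp14), 9 fell (Irf3, Oasl2, Gbp3, Ifitm1, Ifitm2, Ifitm3, Rsad2, Ifi44 and Xaf1) and 22 did not pass the test. In the GSK2830371 group 1 rose (Trim25), 10 fell (Irf3, Stat2, Oas2, Oasl2, Gbp3, Ifitm1, Ifitm2, Ifitm3, Ifi44 and Xaf1) and 23 did not pass. A change is called where limma's moderated test, fitted over all 14 libraries and adjusted by Benjamini-Hochberg over 18810 genes, gave an adjusted p under 0.05. In the same fit 48.3% of all genes were called between DMSO and control, 25.2% higher and 23.1% lower, beside 35.3% of the members. Between GSK2830371 and control 46.3% were called, 24.3% higher and 22.1% lower, beside 32.4% of the members. Of the members, 8.82% and 2.94% were called higher, below the shares of all genes, and 26.5% and 29.4% were called lower, near to or above them. Within the Xist-positive libraries alone, 4 members rose (11.8%, beside 16.1% of all genes) and 5 fell (14.7%, beside 15.6%) with DMSO. With GSK2830371 1 rose (2.94%, beside 21% of all genes) and 12 fell (35.3%, beside 19.4%). The Xist-positive DMSO libraries, replicates 2 and 5, had the highest median members of their group, 0.42 and 0.05 from the control mean (log2). The other DMSO libraries stood at -0.62 to -0.27. Keeping replicates 2 and 5 alone therefore raises the DMSO members by construction, whatever the part of sex. The comparisons were also run without the 4 i-TERTci libraries of highest neutrophil marker sum, which are also the 4 of lowest median member, so that leaving them out raises the members by construction. With DMSO 9 then rose (26.5%, beside 20.7% of all genes) and 6 fell (17.6%, beside 19.1%), and with GSK2830371 4 rose (11.8%, beside 21.3%) and 9 fell (26.5%, beside 20%). In all 14 libraries the members' median log2 change was -0.12 with DMSO and -0.39 with GSK2830371, where the median of all genes was 0.03 and 0.01. Both comparisons use the same 4 controls. These tests measure the spread between individual mice.

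**Figure D1:**
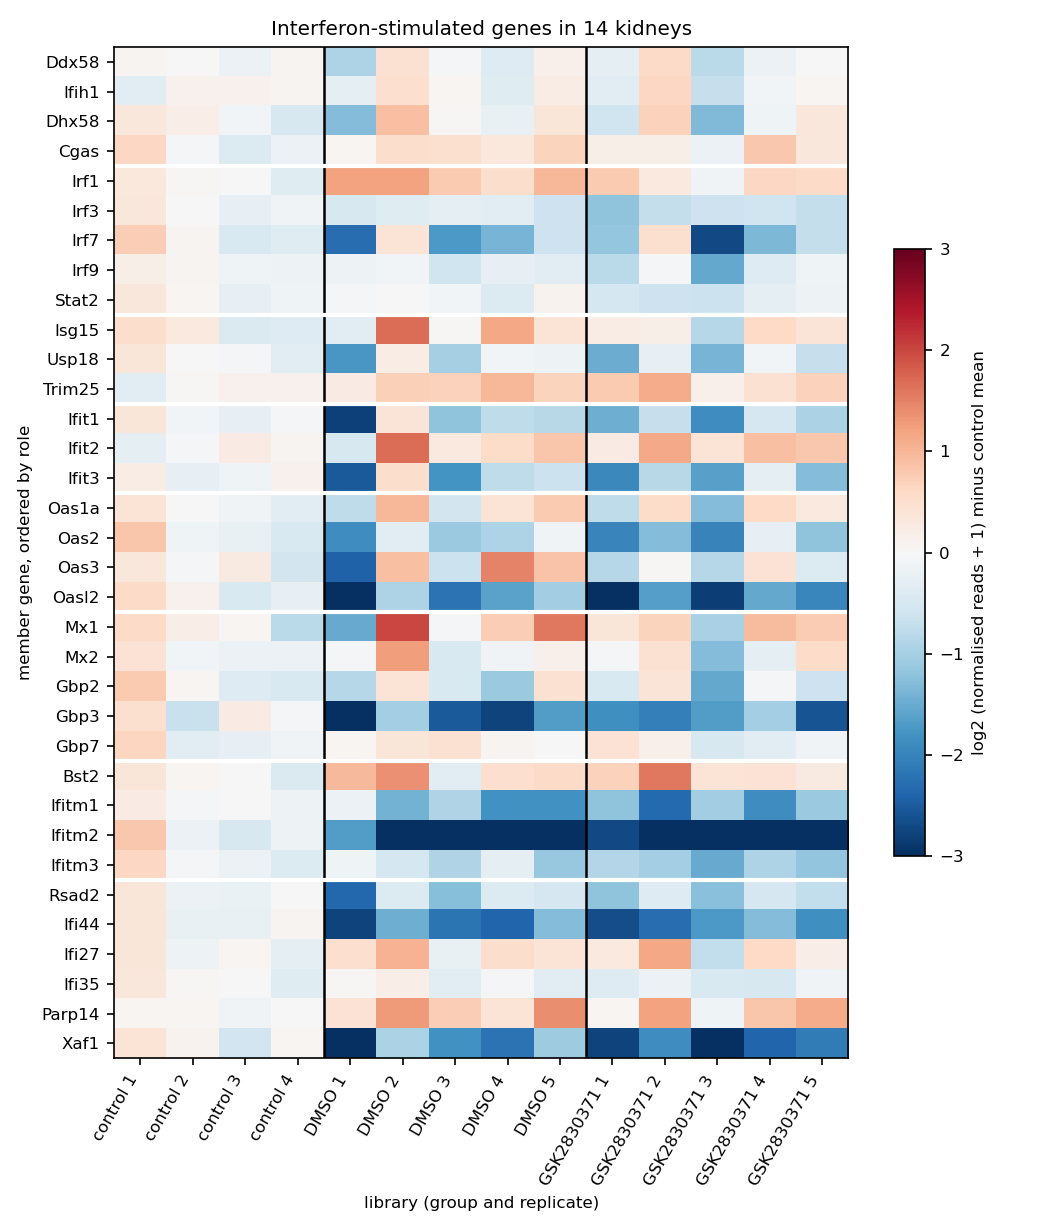
Log2 level of each member (rows, ordered by role) in each of the 14 libraries (columns) minus its mean over the 4 controls, with colours saturated at 3 in either direction. Ifitm2, Ifi44, Gbp3, Xaf1 and Oasl2 are blue in all 10 i-TERTci libraries, while DMSO replicate 2 is red for many members and GSK2830371 replicate 3 is blue for most.

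**Figure D2:**
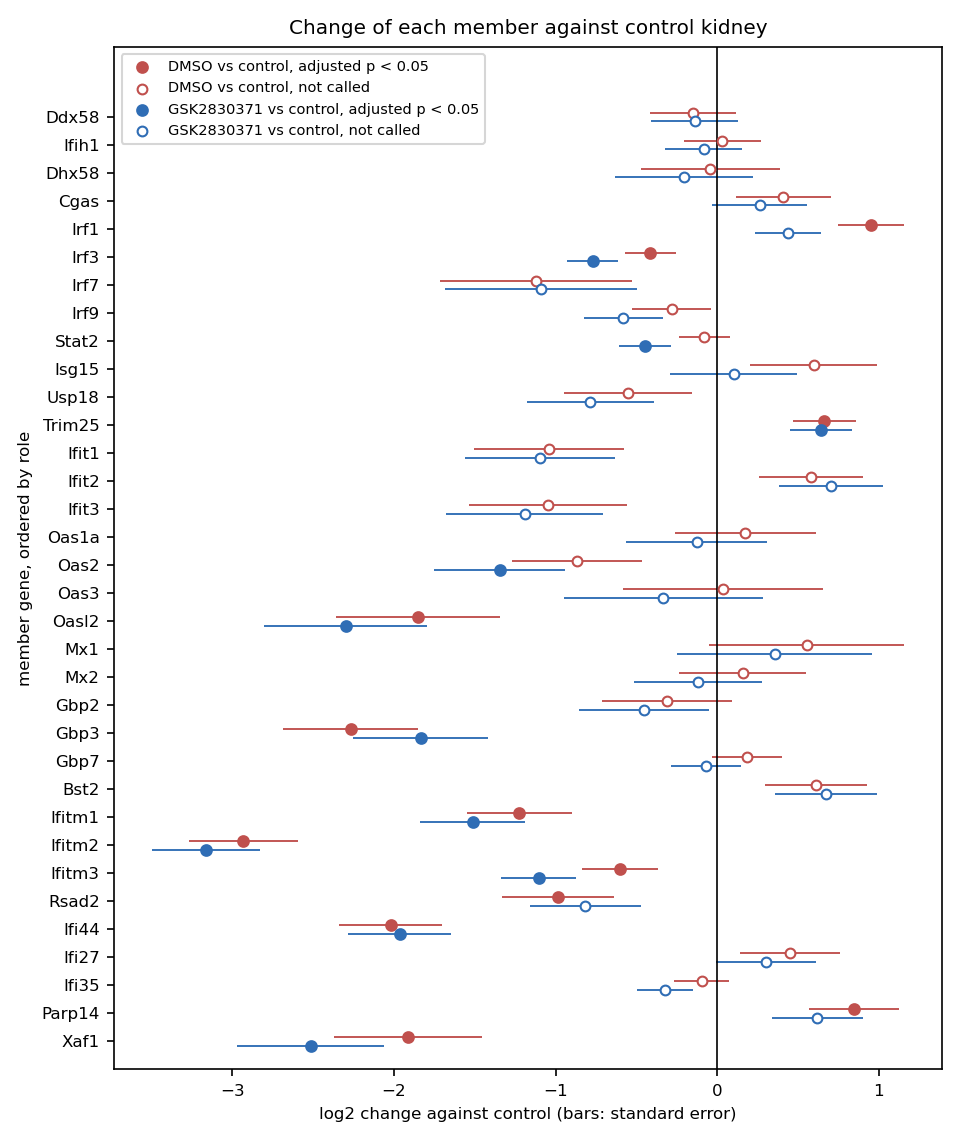
Log2 change of each member against control in the DMSO group (red) and in the GSK2830371 group (blue), with the standard error as bars. Filled points are the 12 members called with DMSO and the 11 called with GSK2830371. Ifitm2 lies farthest to the left, at -2.93 and -3.16.

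None of the 4 sensors of foreign nucleic acid passed the test in either comparison. Ddx58, the RNA sensor RIG-I, had the highest mean level of them, at 1962 ± 164 in the controls, 1857 ± 632 with DMSO and 1865 ± 664 with GSK2830371 (normalised reads, SD; n = 4, 5 and 5). Ifih1, a sensor of long double-stranded RNA, Dhx58, the regulator of both, and Cgas, the cytosolic DNA sensor, had log2 changes between -0.21 and 0.41. Every sensor's groups overlapped. The spread in the diseased kidneys was wide: Dhx58 ran from 83.8 in GSK2830371 replicate 3 to 398 in DMSO replicate 2.

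Among the 5 transcription factors, Irf1 rose with DMSO, Irf3 fell in both i-TERTci groups and Stat2 fell with GSK2830371. Irf1 had 892, 726, 714 and 556 normalised reads in control replicates 1 to 4, 1650.5, 1656, 1229, 1035 and 1424 in DMSO replicates 1 to 5 and 1234, 871, 657, 1104 and 1069 in GSK2830371 replicates 1 to 5. Irf1, a factor induced by interferon gamma and inflammatory signals, was above every control in all 5 DMSO kidneys. Its log2 change was 0.95 (SE 0.20, adjusted p = 0.0014), and with GSK2830371, where replicates 2 and 3 lay within the control range, it was 0.44 (SE 0.20, adjusted p = 0.0907). Without GSK2830371 replicate 3 it was called higher there too (0.58, adjusted p = 0.0238). That library was the lowest of its group for Irf1, so leaving it out raises the group mean by construction. Irf3 had 4608, 3696, 3092 and 3382 normalised reads in control replicates 1 to 4, 2625, 2848, 3041, 2878 and 2363 in DMSO replicates 1 to 5 and 1587, 2225, 2358, 2431 and 2231 in GSK2830371 replicates 1 to 5. Irf3, the factor that sensors activate to turn on interferon beta, was below every control in all 10 i-TERTci kidneys, with no overlap. The log2 change was -0.41 (SE 0.16, adjusted p = 0.0392) with DMSO and -0.77 (SE 0.16, adjusted p = 0.00105) with GSK2830371. The DMSO call was lost under 11 of 23 other settings, among them without control replicate 1 (log2 change -0.31, adjusted p = 0.131). Irf3 shares 88 bases of exon with Bcl2l12 on the opposite strand, and the strand setting of the counting is not given in the sources used here.
Stat2 had 1824, 1506, 1225 and 1321 normalised reads in control replicates 1 to 4, 1428, 1469, 1368, 1091 and 1570.2 in DMSO replicates 1 to 5 and 1001, 947, 928, 1203 and 1297 in GSK2830371 replicates 1 to 5. Stat2, the partner of Irf9 in the type I interferon factor, overlapped between groups, and only with GSK2830371 did it pass, at -0.45 (SE 0.16, adjusted p = 0.0318), against -0.08 (SE 0.16, adjusted p = 0.707) with DMSO. That call was lost under 8 of 23 settings, including the libraries at 31 days or fewer (-0.34, adjusted p = 0.2) and without control replicate 1 (-0.34, adjusted p = 0.113). The upstream sequence of Stat2 is shown because it holds the response element (capitals) to which the complex that contains its own product binds in other genes.
Stat2 (chr10:128270248-128270497, plus strand): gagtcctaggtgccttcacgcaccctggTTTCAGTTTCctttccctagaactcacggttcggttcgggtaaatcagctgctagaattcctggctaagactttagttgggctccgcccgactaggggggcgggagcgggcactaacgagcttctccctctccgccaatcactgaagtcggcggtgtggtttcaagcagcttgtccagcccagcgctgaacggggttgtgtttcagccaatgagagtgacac
Irf7, the factor that amplifies interferon alpha production, had the highest mean level of the factors that passed in neither comparison, at 2956 ± 1204 in the controls, 1605 ± 1271 with DMSO and 1675 ± 1329.9 with GSK2830371. Its mean was lower in both i-TERTci groups, but DMSO replicate 2 (3726) and GSK2830371 replicate 2 (3910.0) lay within the control range, 2044 to 4655. The changes of Irf7 were -1.12 (SE 0.59, adjusted p = 0.135) and -1.09 (SE 0.59, adjusted p = 0.147). Without DMSO replicate 2 it was called lower with DMSO (-1.50, adjusted p = 0.0392), and without GSK2830371 replicate 2 it was called lower with GSK2830371 (-1.48, adjusted p = 0.0428). Each library left out was the highest of its group for Irf7, so leaving it out lowers the group mean by construction. Irf9, the DNA-binding subunit of the type I factor, did not pass, at -0.28 and -0.58, but was called lower with GSK2830371 without replicate 2 of that group (-0.71, adjusted p = 0.0287) or without its replicate 5 (-0.69, adjusted p = 0.0378). Replicates 2 and 5 had the highest values of that group for Irf9, so leaving either out lowers the group mean by construction.

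In the ISG15 system, Trim25 rose in both i-TERTci groups and the others did not pass. Trim25 had 2515, 3202, 3435 and 3415 normalised reads in control replicates 1 to 4, 3691, 5107, 5036, 6253 and 4934 in DMSO replicates 1 to 5 and 5343, 6765, 3461, 4311 and 5050.4 in GSK2830371 replicates 1 to 5. Trim25, the ubiquitin ligase that activates RIG-I, was above every control in all 10 i-TERTci kidneys, though GSK2830371 replicate 3 exceeded the highest control only narrowly. The log2 change was 0.66 (SE 0.19, adjusted p = 0.0106) with DMSO and 0.64 (SE 0.19, adjusted p = 0.0133) with GSK2830371. Within the Xist-positive libraries the sizes were 0.69 and 0.60 and neither passed (adjusted p = 0.0574 and 0.0531), and without control replicate 1 the GSK2830371 call was lost (0.53, adjusted p = 0.0516). Isg15, the ubiquitin-like protein that gives the family its name, stood at 184 ± 60.7 in the controls, 304 ± 176 with DMSO and 199 ± 63.4 with GSK2830371. Its log2 change was 0.60 and 0.10 (adjusted p = 0.224 and 0.851), and its i-TERTci values ran from 96.6 in GSK2830371 replicate 3 to 566 in DMSO replicate 2. Usp18, which removes ISG15 from proteins and dampens receptor signalling, had -0.55 and -0.78 and did not pass.

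The 3 IFIT genes, whose proteins bind viral RNA and block its translation, did not pass in either comparison, but their mean levels parted. Ifit3 had the highest mean level, at 1560.1 ± 237 in the controls, 965 ± 767 with DMSO and 737 ± 352 with GSK2830371. Ifit1 had 536, 394, 353 and 401 normalised reads in control replicates 1 to 4, 59.2, 548, 179, 246 and 233 in DMSO replicates 1 to 5 and 149.9, 256, 113, 295 and 214 in GSK2830371 replicates 1 to 5. In GSK2830371 all 5 values of Ifit1 lay below every control, and in DMSO replicate 2 was above the highest control. The log2 change of Ifit1 was -1.04 (SE 0.47, adjusted p = 0.0765) and -1.10 (SE 0.47, adjusted p = 0.0648), and that of Ifit3 was -1.05 (SE 0.49, adjusted p = 0.0891) and -1.19 (SE 0.49, adjusted p = 0.0574). Without DMSO replicate 2 both were called lower with DMSO (-1.39 and -1.44, adjusted p = 0.0121 and 0.00979), and without GSK2830371 replicate 4 both were called lower with GSK2830371 (-1.25 and -1.42, adjusted p = 0.04997 and 0.0295). These libraries were the highest of their groups for both genes, so leaving them out lowers the group means by construction. DESeq2 also called both lower with GSK2830371 (adjusted p = 0.0394 and 0.0411). Ifit2 had 431, 507, 631 and 561 normalised reads in control replicates 1 to 4, 378, 1699.6, 649, 779 and 935 in DMSO replicates 1 to 5 and 630.0, 1161, 702, 988 and 926 in GSK2830371 replicates 1 to 5. Ifit2 pointed the other way, with 0.58 (SE 0.32, adjusted p = 0.148) and 0.70 (SE 0.32, adjusted p = 0.0834), and DMSO replicate 2 was again the highest library. Within the Xist-positive libraries alone Ifit2 was called higher in both comparisons (1.26 and 0.83, adjusted p = 0.00683 and 0.0191), as it was with DMSO without DMSO replicate 1 (0.84, adjusted p = 0.0184). Replicate 1 was the lowest DMSO library for Ifit2, so leaving it out raises the group mean by construction. The 3 genes lie in 1 cluster on chromosome 19, at chr19:34550694-34576419 (Ifit2), chr19:34583531-34588731 (Ifit3) and chr19:34640871-34650009 (Ifit1).

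Of the 4 oligoadenylate synthetase genes, Oasl2 fell in both i-TERTci groups and Oas2 fell with GSK2830371. Oasl2 had 2535, 1889, 1254 and 1442 normalised reads in control replicates 1 to 4, 152, 909, 369.8, 567 and 829.8 in DMSO replicates 1 to 5 and 149, 546, 242, 596 and 438 in GSK2830371 replicates 1 to 5. Oasl2, a family member that carries ubiquitin-like domains, was below every control in all 10 i-TERTci kidneys. The change was -1.85 (SE 0.50, adjusted p = 0.00782) with DMSO on the log2 scale, a 3.61-fold lower level, and -2.30 (SE 0.50, adjusted p = 0.00212) with GSK2830371, 4.91-fold lower. Within the Xist-positive libraries the DMSO change was -0.97 and did not pass (adjusted p = 0.065), while the GSK2830371 change was -1.98 and did. Oas2 had 823, 421, 395 and 338 normalised reads in control replicates 1 to 4, 126, 369, 215, 242 and 432 in DMSO replicates 1 to 5 and 117, 189, 114, 388 and 202 in GSK2830371 replicates 1 to 5. Oas2, an enzyme that makes the 2′-5′ oligoadenylates which activate RNase L, overlapped between control and both other groups. The DMSO and GSK2830371 changes were -0.87 (SE 0.40, adjusted p = 0.0864) and -1.35 (SE 0.40, adjusted p = 0.0129). Without DMSO replicate 5 Oas2 was called lower with DMSO (-1.06, adjusted p = 0.0433). Replicate 5 was the highest DMSO library for Oas2, so leaving it out lowers the group mean by construction. Without control replicate 1, the highest of the 14 libraries for Oas2, the GSK2830371 call was lost (-1.08, adjusted p = 0.0556). Oas1a, at 160.3 ± 36.3 in the controls, 199 ± 98.2 with DMSO and 163 ± 80.8 with GSK2830371, and Oas3, which ran from 9.67 to 159.6 over the i-TERTci libraries, did not pass (log2 change -0.33 to 0.17). Both make the same messenger as Oas2.

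Of the 5 GTPases, Gbp3 fell in both i-TERTci groups and the others did not pass. Gbp3 had 7108, 3228, 6088 and 4952 normalised reads in control replicates 1 to 4, 507, 2544, 888, 744 and 1604 in DMSO replicates 1 to 5 and 1428, 1239, 1612, 2534 and 851 in GSK2830371 replicates 1 to 5. Gbp3 belongs to the guanylate-binding proteins, interferon gamma-induced GTPases that coat intracellular pathogens and their vacuoles. Per kilobase of exon it was the most abundant of the 5 in the controls, at 1637 normalised reads per kb beside 305 for Gbp2 and 210.2 for Gbp7. Every i-TERTci kidney lay below the lowest control. The log2 change was -2.27 (SE 0.42, adjusted p = 0.000554) with DMSO, 4.81-fold lower, and -1.83 (SE 0.42, adjusted p = 0.00267) with GSK2830371, 3.56-fold lower. It kept its call under all 23 other settings in both comparisons, with the smallest DMSO change, -1.34, within the Xist-positive libraries. The sequence upstream of its start holds 2 overlapping matches to the response element, given in capitals.
Gbp3 (chr3:142559794-142560043, plus strand): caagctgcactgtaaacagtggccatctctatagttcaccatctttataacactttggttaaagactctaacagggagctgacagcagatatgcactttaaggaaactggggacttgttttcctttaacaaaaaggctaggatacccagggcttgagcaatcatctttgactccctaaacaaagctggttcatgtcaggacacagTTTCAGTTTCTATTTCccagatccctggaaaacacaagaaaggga
Gbp7, the GTPase with the highest mean level among those that passed in neither comparison, stood at 1180.2 ± 407 in the controls, 1304 ± 189.8 with DMSO and 1113 ± 287 with GSK2830371. Gbp2 had log2 changes of -0.31 and -0.45. The dynamin-like Mx1 and Mx2, which block virus replication, had changes of 0.55 and 0.35 and of 0.16 and -0.12. Mx1 ran from 13.3 in DMSO replicate 1 to 162 in DMSO replicate 2. Within the Xist-positive libraries Mx1 was called higher with DMSO (1.80, adjusted p = 0.0285). The stretches of Gbp2, Gbp3 and Gbp7 printed above hold the element at -59, -45 and -53 from the start, in 1 of 2 windows for Gbp3, and of the 3 genes Gbp3 was called.

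The membrane restriction factors held the largest fall of the set. Ifitm2 had 4346, 2214, 1764 and 2234 normalised reads in control replicates 1 to 4, 773, 296, 300.3, 259 and 203 in DMSO replicates 1 to 5 and 378, 306, 251, 237 and 234 in GSK2830371 replicates 1 to 5. Ifitm2, a small membrane protein that stops viruses fusing in endosomes, was below the lowest control in all 10 i-TERTci kidneys. Its log2 change was -2.93 (SE 0.33, adjusted p = 9.41e-06) with DMSO, 7.62-fold lower, and -3.16 (SE 0.33, adjusted p = 5.12e-06) with GSK2830371, 8.95-fold lower. DMSO replicate 1 was the highest of the 10, and without it the DMSO change was -3.24. Ifitm2 shares 268 bases of exon with the same-strand gene model Gm45717. The sequence upstream of Ifitm2 is shown because of the size of its fall, with the 1 match to the response element, in reverse, in capitals.
Ifitm2 (chr7:140955962-140956211, minus strand): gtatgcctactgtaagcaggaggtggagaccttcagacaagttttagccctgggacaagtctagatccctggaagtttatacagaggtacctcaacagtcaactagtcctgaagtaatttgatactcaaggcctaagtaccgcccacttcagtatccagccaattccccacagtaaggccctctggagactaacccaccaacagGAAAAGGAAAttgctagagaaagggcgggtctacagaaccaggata
Ifitm1 had 1289.9, 1043, 1088 and 978 normalised reads in control replicates 1 to 4, 964, 409, 586, 312 and 311 in DMSO replicates 1 to 5 and 476, 218, 527, 298 and 505 in GSK2830371 replicates 1 to 5. Ifitm1, its relative at the cell surface, was also below every control in all 10 kidneys, although DMSO replicate 1 was close to the lowest control. On the log2 scale it changed by -1.22 (SE 0.33, adjusted p = 0.0062) and -1.51 (SE 0.33, adjusted p = 0.00162). Ifitm3 had 5447, 3432, 3129 and 2640.2 normalised reads in control replicates 1 to 4, 3245, 2434, 1871, 2860.2 and 1599 in DMSO replicates 1 to 5 and 1917, 1732, 1233, 1864 and 1551 in GSK2830371 replicates 1 to 5. Ifitm3, the family member best known for restricting influenza virus, overlapped between DMSO and control in 2 libraries, replicates 1 and 4, and did not overlap between GSK2830371 and control. The changes were -0.60 (SE 0.23, adjusted p = 0.0435) and -1.10 (SE 0.23, adjusted p = 0.00136). The DMSO call was lost under 8 of 23 settings, among them without control replicate 1, where the change was -0.40 (adjusted p = 0.166). Per kilobase of exon, Ifitm3 was the most abundant member in the controls (5401 normalised reads per kb), followed by Ifitm2 (4029.6). In the DMSO group the order per kilobase became Ifitm3 (3543), Ifi27 (1824) and Bst2 (1427), with Ifitm2 at 559. The 3 Ifitm genes are neighbours on chromosome 7, at chr7:140954837-140955987 (Ifitm2), chr7:140967221-140969825 (Ifitm1) and chr7:141009586-141010770 (Ifitm3). Bst2, the tether that holds budding virus on the cell, had a higher mean in both i-TERTci groups, at 798 ± 175 in the controls, 1288 ± 524 with DMSO and 1326 ± 575 with GSK2830371, and did not pass, with 0.61 (SE 0.31, adjusted p = 0.119) and 0.67 (SE 0.31, adjusted p = 0.0904). Without DMSO replicate 3 Bst2 was called higher with DMSO (0.86, adjusted p = 0.0211). Replicate 3 was the lowest DMSO library for Bst2, so leaving it out raises the group mean by construction.

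Of the 6 other effectors, Ifi44 and Xaf1 fell in both i-TERTci groups, Rsad2 fell with DMSO and Parp14 rose with DMSO. Ifi44 had 1148, 767, 770.2 and 957 normalised reads in control replicates 1 to 4, 131, 326, 196, 172 and 364 in DMSO replicates 1 to 5 and 141, 183, 270.1, 365 and 250.3 in GSK2830371 replicates 1 to 5. Ifi44, a cytosolic protein that rises after type I interferon, was below the lowest control in all 10 i-TERTci kidneys. Its log2 change was -2.02 (SE 0.32, adjusted p = 0.000128) and -1.96 (SE 0.32, adjusted p = 0.000175), 4.05-fold and 3.90-fold lower. The change was -1.37 with DMSO within the Xist-positive libraries and still passed. Ifi44 has the smallest p among the called members whose window lacks the response element as spelled here, and its upstream sequence is given for comparison with that of Gbp3 and Ifitm2. That sequence does hold the run tttcagttttcgtttc, in which TTTC recurs at spacings that the search did not cover.
Ifi44 (chr3:151749911-151750160, minus strand): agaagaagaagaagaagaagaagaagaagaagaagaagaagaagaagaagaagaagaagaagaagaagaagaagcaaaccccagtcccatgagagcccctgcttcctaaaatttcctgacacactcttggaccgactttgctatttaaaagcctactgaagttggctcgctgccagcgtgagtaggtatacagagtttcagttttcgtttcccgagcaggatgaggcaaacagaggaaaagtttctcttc
Xaf1 had 1534, 1240.3, 781 and 1212 normalised reads in control replicates 1 to 4, 97.9, 604, 331, 251 and 556 in DMSO replicates 1 to 5 and 169, 317, 105, 223 and 268 in GSK2830371 replicates 1 to 5. Xaf1, a pro-apoptotic partner of XIAP that interferon induces, was also below every control in all 10 kidneys. It changed by -1.91 (SE 0.46, adjusted p = 0.00309) and -2.51 (SE 0.46, adjusted p = 0.000487), 3.76-fold and 5.71-fold lower. The DMSO change within the Xist-positive libraries was -0.99 and did not pass (adjusted p = 0.0727). Rsad2 had 1215, 823, 818 and 943 normalised reads in control replicates 1 to 4, 184, 704, 388, 710.3 and 664 in DMSO replicates 1 to 5 and 407, 721, 392, 657 and 562 in GSK2830371 replicates 1 to 5. Rsad2, or viperin, an enzyme that makes a chain-terminating nucleotide, lay below every control in all 10 i-TERTci kidneys. The test passed with DMSO, at -0.98 (SE 0.34, adjusted p = 0.0277), and not with GSK2830371, at -0.82 (SE 0.34, adjusted p = 0.0634). The DMSO call was lost under 6 settings, among them within the Xist-positive libraries (-0.45, adjusted p = 0.205) and without control replicate 1 (-0.86, adjusted p = 0.0838). With GSK2830371 Rsad2 was called lower by DESeq2 (-0.80, adjusted p = 0.0382), within the Xist-positive libraries (-0.70, adjusted p = 0.0308), with only the 2 groups compared (-0.80, adjusted p = 0.00747), with the replicate block (-0.89, adjusted p = 0.0379) and without the 4 libraries of highest neutrophil sum (-0.53, adjusted p = 0.0357). The sequence upstream of Rsad2 holds 1 match, farther from the start than those of Gbp3 and Ifitm2.
Rsad2 (chr12:26456453-26456702, minus strand): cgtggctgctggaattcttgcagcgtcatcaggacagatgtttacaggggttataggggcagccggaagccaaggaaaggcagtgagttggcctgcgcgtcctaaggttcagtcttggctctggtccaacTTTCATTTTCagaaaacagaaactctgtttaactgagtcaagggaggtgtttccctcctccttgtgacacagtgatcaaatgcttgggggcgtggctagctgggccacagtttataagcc
Parp14 had 895, 897, 800.3 and 845 normalised reads in control replicates 1 to 4, 1151, 2085, 1424, 1150.0 and 2249 in DMSO replicates 1 to 5 and 897, 1992, 789, 1528 and 1857 in GSK2830371 replicates 1 to 5. Parp14, a mono-ADP-ribosyltransferase linked to interferon and interleukin-4 signalling, was above every control in all 5 DMSO kidneys, while GSK2830371 replicate 1 matched the highest control to within 1 read and replicate 3 lay below the lowest. The log2 change was 0.85 (SE 0.28, adjusted p = 0.0202) and 0.62 (SE 0.28, adjusted p = 0.08). Parp14 was called higher with GSK2830371 too by edgeR (0.72, adjusted p = 0.0485) and DESeq2 (0.71, adjusted p = 0.0365), and by limma without GSK2830371 replicate 1 (0.76, adjusted p = 0.041) or replicate 3 (0.81, adjusted p = 0.0207). Replicates 1 and 3 had the lowest values of that group for Parp14, so leaving either out raises the group mean by construction. Within the Xist-positive libraries the DMSO change was 1.34. Ifi27, a mitochondrial and nuclear membrane protein, had the highest mean level among the effectors that passed in neither comparison, at 1913 ± 389 in the controls, 2675 ± 809 with DMSO and 2535 ± 1135 with GSK2830371. Ifi35 had -0.10 and -0.32.

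**Figure D3:**
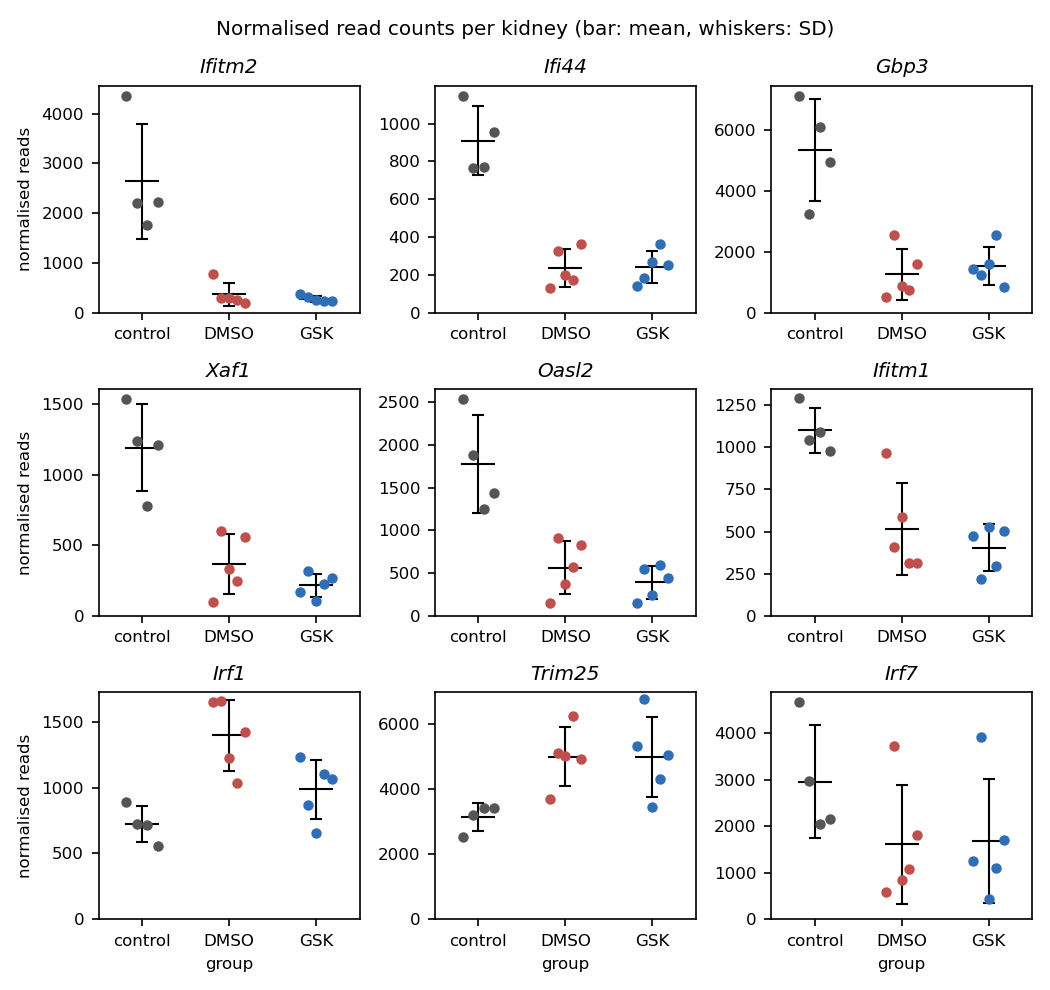
Normalised reads per kidney for 9 members, 1 point per library, with the group mean (bar) and SD (whiskers). For Ifitm2, Ifi44, Gbp3, Xaf1, Oasl2 and Ifitm1 all i-TERTci points lie below the controls, Trim25 lies above them, Irf1 lies above them with DMSO alone, and for Irf7 replicate 2 of each i-TERTci group stands in the control range.

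Close relatives changed unequally inside the same kidneys. The log2 ratio of 2 family members within a library does not depend on the size factor apart from the added 1 read, and it was compared between groups by an exact two-sided permutation test over libraries, for 13 pairs in 3 comparisons (39 tests, Benjamini-Hochberg over them). The pairs were chosen after the members' values had been seen, and some hold members already called above, such as Ifitm2 and Gbp3. Pairs that share a gene are not independent of each other. How often other pairs of genes part between these groups was not tested. In all, 14 of 39 passed, each with groups that did not overlap and with an exact permutation p = 0.0159, the smallest that 4 libraries against 5 allow (adjusted p = 0.0442). The Ifitm2 to Ifitm3 ratio was -0.51 ± 0.27 in the controls (log2, SD), -2.83 ± 0.52 with DMSO and -2.56 ± 0.28 with GSK2830371. Ifitm1 to Ifitm2 shifted the other way, by 1.71 and 1.65, while Ifitm1 to Ifitm3 did not pass (-0.62 and -0.41). Ifitm2 thus lost ground to both neighbours. The Ifit1 to Ifit2 ratio was -0.34 ± 0.48 in the controls, -1.96 ± 0.42 with DMSO and -2.14 ± 0.32 with GSK2830371. Ifit2 to Ifit3 moved by 1.62 and 1.90, and Ifit1 to Ifit3 by only 0.01 and 0.10, which did not pass. Ifit2 gained on both of its neighbours. The windows of Ifit1 and Ifit3 hold the response element as spelled here, and the 2 windows of Ifit2 do not. Whether the element has a part in these ratios was not tested. The Gbp3 to Gbp7 ratio was 2.17 ± 0.36 in the controls, -0.28 ± 0.89 with DMSO and 0.41 ± 0.78 with GSK2830371. Gbp2 to Gbp3 passed with DMSO (1.96) and not with GSK2830371 (1.38, adjusted p = 0.124), and Gbp2 to Gbp7 in neither. Gbp3 fell against Gbp7 in the diseased kidneys of both groups. Oas1a gained on Oas2 by 1.04 and 1.22, and Oas2 to Oas3 passed with GSK2830371 (-1.01). Mx1 to Mx2 did not pass, and no pair passed between GSK2830371 and DMSO. Members of these families are similar in sequence, so reads that fit 2 of them may have been dropped or split in the counting.

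The members also varied more between diseased mice than between controls. The SD of a member's log2 level had a median over the 34 of 0.29 in the controls, 0.70 in the DMSO group and 0.56 in the GSK2830371 group, where the median over all 18810 genes was 0.29, 0.42 and 0.37. The SD was larger than in control for 28 of 34 members (82.4%) in each i-TERTci group, against 71.5% and 63.7% of all genes. Oas3, Mx1, Ifit3 and Ifit1 varied the most among the DMSO mice, with SDs of 1.58, 1.40, 1.17 and 1.15 on the log2 scale. Much of this spread ran along the same mice. DMSO replicate 2 was the highest of the 10 i-TERTci libraries for 14 members and GSK2830371 replicate 2 for 8, while GSK2830371 replicate 3 was the lowest for 17 and DMSO replicate 1 for 11. The median member stood 0.42 above the control mean on the log2 scale in DMSO replicate 2 and 0.09 above it in GSK2830371 replicate 2. It stood at -0.62 in DMSO replicate 1 and at -1.15 in GSK2830371 replicate 3, where 29 of 34 members were below every control. The matching counts over all genes are not given here. Whether these libraries stand apart for the members more than for genes at large was not tested.

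**Figure D4:**
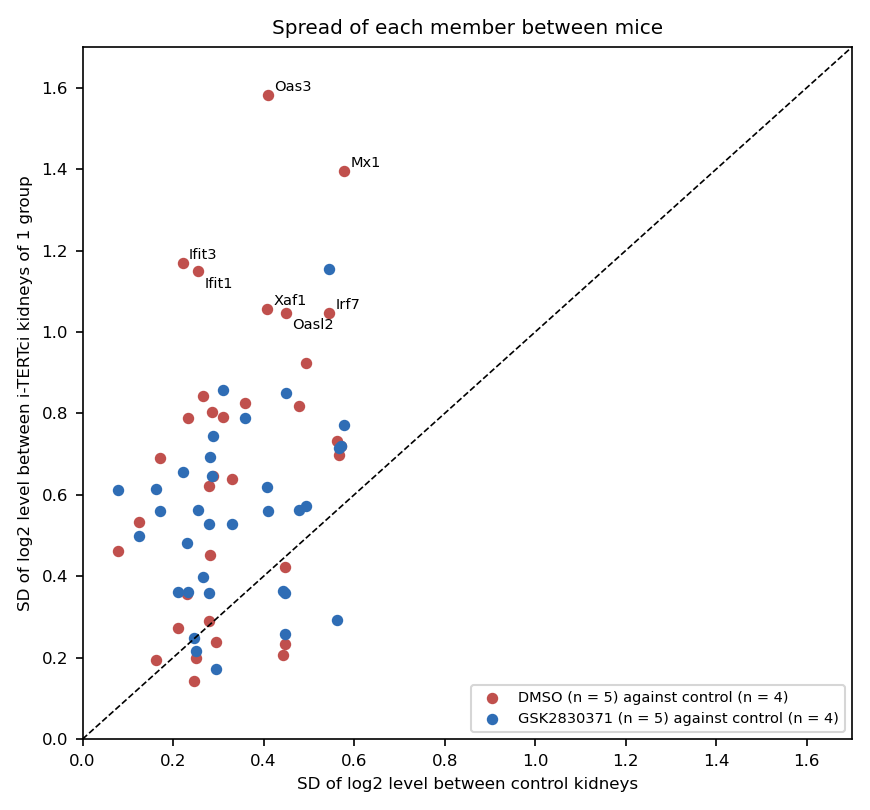
SD of each member's log2 level between control kidneys (x axis, n = 4) and between i-TERTci kidneys of 1 group (y axis, n = 5), with the DMSO group in red and the GSK2830371 group in blue and the line of equal SD dashed. In each colour 28 of the 34 points lie above the line, and the named genes are those with a DMSO SD above 1.

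Markers of several leukocytes moved with the groups and with these libraries. The summed level of 8 neutrophil markers was 132 to 225 normalised reads in the controls, 717 to 25747 with DMSO and 473 to 15710.1 with GSK2830371, and 5 of the 8 were at 0 in at least 1 control. The 4 i-TERTci libraries with the highest neutrophil sums, 11687 to 25747, were the 4 with the lowest median member (-1.15 to -0.46). In DMSO replicate 2 and GSK2830371 replicate 2, with the highest medians, the sums were 717 and 699. The lowest i-TERTci sum, 473 in GSK2830371 replicate 4, went with a median member of -0.26. DMSO replicate 4 had a sum of 8778 and a median member of -0.27. The sum of 8 macrophage markers was 7911 to 11914 in the controls, 6701 to 31589 with DMSO and 10580.3 to 28117 with GSK2830371, and was highest in DMSO replicate 2 and next highest in GSK2830371 replicate 2. In the 4 libraries of lowest median member it was 13901 and 27984 (DMSO replicates 1 and 3) and 20343.5 and 10580.3 (GSK2830371 replicates 1 and 3). Markers of T and NK cells, 10 genes, summed to 447 to 1249 in the controls, 96.2 to 711 with DMSO and 127 to 255 with GSK2830371. Those of plasmacytoid dendritic cells, the main producers of interferon alpha, summed to 4409 to 6316 in the controls, 3262 to 4550.0 with DMSO and 3089 to 4973 with GSK2830371, but that list contains Bst2. Its more specific Siglech stood at 56.5 to 119, 1.21 to 123 and 15.8 to 60.6. Of 8 proximal tubule markers 6 fell in each comparison with control (75%, beside 23.1% and 22.1% of all genes). Endothelial markers summed to 24767 to 31345 in the controls, 19145 to 33788 with DMSO and 25029 to 31403 with GSK2830371. The comparisons with control were repeated without those 4 libraries of highest neutrophil sum, a choice made after the data were seen. Since they are also the 4 of lowest median member, leaving them out raises the members by construction. With DMSO, 9 members were then higher in place of 3, the added ones being Ifi27, Ifit2, Isg15, Mx1, Oas1a and Oas3 (log2 change 0.66 to 1.45), and 6 of the 9 lower calls remained. With GSK2830371 4 were higher and 9 lower. Of all genes 20.7% were then higher and 19.1% lower with DMSO, and 21.3% and 20% with GSK2830371. The falls of Ifitm2 (-3.30 and -3.26), Ifitm1 (-1.67 and -1.76), Ifi44 (-1.70 and -1.80), Gbp3 (-1.82 and -1.88), Oasl2 (-1.18 and -1.70) and Xaf1 (-1.39 and -2.11) passed without them in both comparisons. The part of the other cell types in the members' changes was not tested.

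No member passed the test between GSK2830371 and DMSO. At the threshold 0 of 34 were called in either direction, as was 0% of all 18810 genes (0% higher and 0% lower), and edgeR and DESeq2 also called 0 members. At an unadjusted p under 0.05, limma gave 4 members: Irf1 at -0.51 (SE 0.19, adjusted p = 0.994), Stat2 at -0.37 (SE 0.15, adjusted p = 0.994), Irf3 at -0.36 (SE 0.15, adjusted p = 0.994) and Ifitm3 at -0.50 (SE 0.22, adjusted p = 0.994). All 4 had overlapping groups and lower means with the inhibitor. Of all 18810 genes, 800 had an unadjusted p under 0.05 in the same limma comparison. Over the 34 members the log2 difference ran from -0.60 (Xaf1) to 0.43 (Gbp3), 27 were below 0 and the median was -0.23, where the median of all genes was -0.01. The inhibitor group includes GSK2830371 replicate 3, the lowest library for 17 members, and 3 of its 5 mice were on doxycycline for 49 days while those of the DMSO group reached 38 days at most. That a test was not passed does not show that the groups were alike: the standard error of the difference for Irf7 was 0.56 on the log2 scale.

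The rest of the interferon pathway was read from 9 further lists of 120 gene symbols, of which 107 were tested. The 120 include Tmem173, an older symbol of Sting1, which was tested under the latter name. None of the 10 listed interferon genes, Ifnb1 among them, had a row in the shared tables, whose smallest total for a gene is 10 reads. Of the 107, 23 rose and 11 fell with DMSO (31.8% called), and 20 rose and 21 fell with GSK2830371 (38.3%), both below the shares of all genes given above. Between GSK2830371 and DMSO 0 were called, with 8 of 107 at an unadjusted p under 0.05, beside 800 of all 18810 genes. Of 9 receptors and kinases, 3 rose with DMSO and 3 rose and 1 fell with GSK2830371. That is 33.3% higher in both comparisons, beside 25.2% and 24.3% of all genes, and 11.1% lower with GSK2830371, beside 22.1%. Ifnar1, a chain of the type I receptor, had 0.30 (SE 0.14, adjusted p = 0.0886) and 0.16 (SE 0.14, adjusted p = 0.374). Ifngr1, the ligand-binding chain of the interferon gamma receptor, rose in both groups, from 1202 ± 117 in the controls to 3762 ± 1283 and 3909 ± 1340.5, with log2 changes of 1.58 (SE 0.27, adjusted p = 0.000292) and 1.63 (SE 0.27, adjusted p = 0.000254). Il10rb, a chain of the interferon lambda receptor, fell with GSK2830371, at -1.89 (SE 0.45, adjusted p = 0.00335), from a low level of 47.3 ± 17.6 in the controls.

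Of 13 tested sensing adapters and kinases, 3 rose and 2 fell with DMSO and 2 rose and 2 fell with GSK2830371. With DMSO that is 23.1% higher and 15.4% lower, beside 25.2% and 23.1% of all genes. With GSK2830371 it is 15.4% in each direction, beside 24.3% and 22.1%. Sting1, the adapter downstream of cGAS, rose in both, with 1.27 (SE 0.25, adjusted p = 0.000842) and 0.73 (SE 0.25, adjusted p = 0.0271). Tbk1, the kinase that activates IRF3, rose by 1.02 and 0.83. Zbp1, a sensor of Z-form nucleic acid that can start necroptosis, fell, at -1.98 and -2.88. Among 10 brakes on the response, Socs3, a feedback inhibitor driven mainly by STAT3, rose most, from 156 ± 30.4 to 2937 ± 2879 and 1406 ± 905, at 3.75 (SE 0.56, adjusted p = 0.00013) and 3.01 (SE 0.56, adjusted p = 0.000712). Socs1, which responds to interferon gamma, had -0.70 with DMSO and was called lower with GSK2830371, at -1.49 (SE 0.36, adjusted p = 0.00321).

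A list of 32 further type I interferon targets also held calls in both directions, with 5 higher and 7 lower with DMSO and 5 higher and 10 lower with GSK2830371. With DMSO that is 15.6% higher and 21.9% lower, beside 25.2% and 23.1% of all genes. With GSK2830371 it is 15.6% and 31.25%, beside 24.3% and 22.1%. Eif2ak2, the kinase PKR, rose by 0.96 and 0.70. Ifi44l, a paralog of Ifi44, had 19.1 ± 3.37 normalised reads in the controls and 1.46 ± 1.02 and 2.87 ± 4.27 in the i-TERTci groups, and was called lower in both (adjusted p = 0.000667 and 0.00132). Cmpk2, the gene beside Rsad2 and divergent from it, had -0.84 and -0.88 and did not pass. Irf8, a factor of myeloid cells, was called lower with GSK2830371, at -0.50 (SE 0.18, adjusted p = 0.0362), and not with DMSO (0.14). Of 15 interferon gamma GTPases and chemokines 1 rose with DMSO, the chemokine Cxcl10 at 1.78 (SE 0.53, adjusted p = 0.0129), and 5 fell with GSK2830371, among them Irgm2 at -0.92 (SE 0.23, adjusted p = 0.00456). That is 6.67% higher with DMSO, beside 25.2% of all genes, and 33.3% lower with GSK2830371, beside 22.1%. Irgm1 had 0.18 and -0.23 and did not pass. Class I antigen processing went the other way: 8 of 14 genes rose with DMSO (57.1%, beside 25.2% of all genes) and 7 with GSK2830371 (50%, beside 24.3%), and 0 fell. Tapbp, which loads peptides onto class I molecules, rose from 5584 ± 214 to 18287 ± 6152 and 24471 ± 10693, at 1.65 and 2.03. B2m, the shared light chain, had 0.06 and 0.25 and did not pass, and Nlrc5, the activator of class I genes, had 0.51 and -0.03. Of 7 class II genes 1 rose with DMSO (14.3%, beside 25.2% of all genes) and 2 with GSK2830371 (28.6%, beside 24.3%). H2-Eb1, a class II beta chain, rose by 1.23 and 1.26, H2-DMa, which edits class II peptides, was called with GSK2830371 (1.59), and Ciita, the class II activator, was at -0.28 and -0.28. Of 7 p200 and nucleic acid-binding genes, Ifi203 and Mndal fell in both groups, at -1.84 and -1.96 and at -2.06 and -2.14, and 1 rose with DMSO. That is 28.6% lower in each, beside 23.1% and 22.1% of all genes, and 14.3% higher with DMSO, beside 25.2%. These lists were drawn up with earlier results of these data known, and their counts are descriptions.

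**Figure D5:**
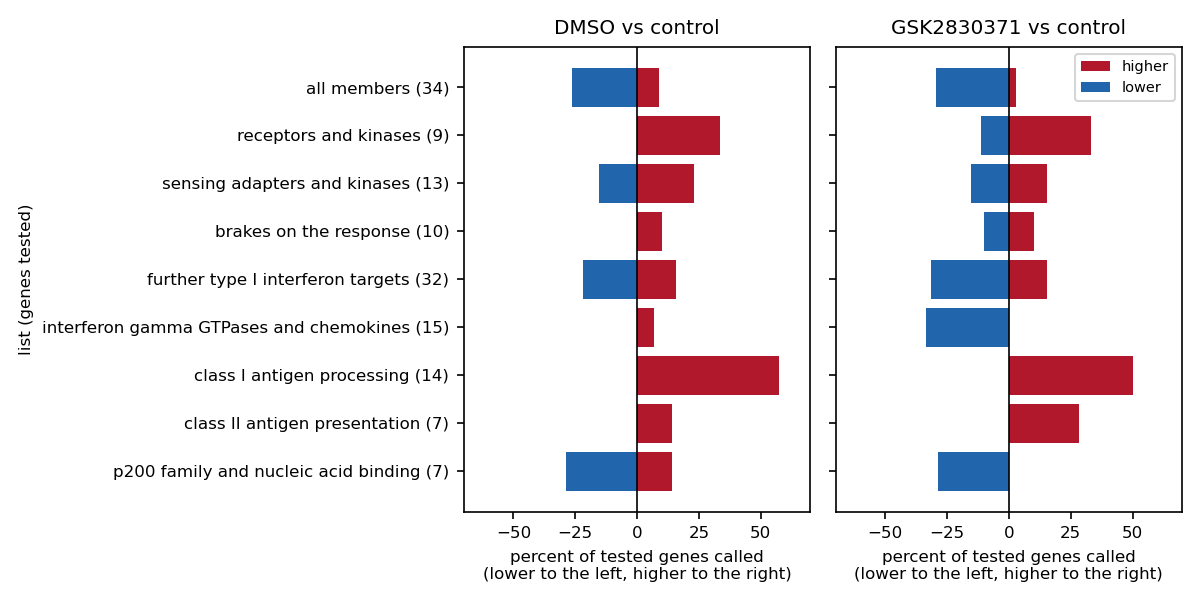
Percent of tested genes called lower (blue, to the left) and higher (red, to the right) against control in the members and in 8 other interferon lists, with the number tested in brackets. Class I antigen processing has only higher calls, 8 and 7 of 14, while the members have 9 and 10 lower calls of 34. Of all genes, 25.2% and 24.3% were called higher and 23.1% and 22.1% lower.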

How the data were processed

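Whole-kidney RNA of 14 mice was sequenced. The mm10 build and 4 tools (STAR, DESeq2, Trimmomatic and FastQC) appear in the submitters' processing notes. How reads were assigned to genes, and whether by strand, is not given in the sources used here. As deposited, the 2 tables hold signal per gene: the authors divided whole read counts by 1 size factor per library, as the values themselves show, since every value is some whole number of a fixed step for its library (tolerance 0.001). Each table has 9 libraries, with the 4 controls in both, and the recovered control reads were identical (0 mismatches). The 23682 genes in both tables were used, and the 539 and 482 in 1 table alone were left out. GENCODE M21 matched 96.2% of them.

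Recovered reads were scaled by size factors (median of ratios) taken over all 14 libraries. After adding 1, log2 values of the 18810 genes kept by filterByExpr entered 1 limma fit by group (trend and robust moderation, two-sided, Benjamini-Hochberg, threshold 0.05). These scaled reads are the normalised reads of the text. Values after ± are SDs between mice. Exact permutation tests over libraries were used for ratios within families. The fit was tested on simulated data. R 4.3.3, limma 3.58.1, edgeR 4.0.16, DESeq2 1.42.0, Python 3.11.15, scipy 1.17.1 and matplotlib 3.10.9 were used. Promoter sequences and their coordinates are RefSeq's (GRCm38.p6), and gene coordinates are GENCODE's (GRCm38, the build mm10).

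The members and the other lists were chosen with earlier results of these data known. 1 pathway gene of the lists is not reported here and was left out of the list counts. A member that passed in at least 1 comparison is given with its value in each library. Of the others, the member with the highest mean level in each role group is given with its means, and from each other list the genes with the smallest p are named, and the top entry. Ifit1, Ifit2, Ifit3, Irf7 and the other members described more fully were chosen after their values were seen. Where a member did not pass in a comparison, the other settings named for it are ones that gained the call. The settings that left it uncalled are not listed. Alternatives covered the test, scaling, pseudocount, filter, libraries, covariates and leaving out each library. The ratios within families and the fit without the 4 libraries of highest neutrophil sum were chosen after seeing the data.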

Additional observations from a re-analysis of the deposited data

Results flagged for a closer look

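The 14 members that changed in at least 1 comparison were examined for a library far from the others of its group, in 42 gene and group combinations. By chance about 1 in 20 such groups holds one, and 2 were found. Ifitm2 in DMSO replicate 1 stood at 772.6 normalised reads, where the other 4 DMSO libraries had 203 to 300.3. It was still below the lowest control. Irf3 in GSK2830371 replicate 1 stood at 1586.9 normalised reads, where the other 4 libraries of the group had 2225 to 2431. Without that library the fall of Irf3 with GSK2830371 still passed.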

How the results depend on the processing

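The counts of called members were recomputed under 23 alternatives in each comparison with control, of which 1, without the 4 libraries of highest neutrophil sum, was chosen after seeing the data. Under that one 9 members were higher and 6 lower with DMSO and 4 higher and 9 lower with GSK2830371. Under the others 3 or 4 were higher with DMSO, and 5 were lower within the Xist-positive libraries alone, where only DMSO replicates 2 and 5 remain, in place of 9. With GSK2830371 the count of higher members varied: 1 in the fit reported, 2 by edgeR, 2 by DESeq2, 2 among libraries at 31 days or fewer, 3 when only the 2 groups compared were fitted, 4 with Xist as a covariate. In the same order 4568, 4589, 4867, 3687, 4729 and 3965 of all genes were higher. The lower members were 10, 10, 13, 9, 13 and 9 in that order. Of all genes 4148, 3989, 4251, 3557, 4405 and 3630 were lower. The genes tested were 18810, 18810, 18763, 19515, 18063 and 18810. Leaving out each library in turn gave 3 to 4 higher and 6 to 10 lower with DMSO, and 0 to 3 higher and 8 to 12 lower with GSK2830371. Over all genes those fits gave 4050 to 4771 higher and 3595 to 4337 lower with DMSO. With GSK2830371 they gave 3818 to 4457 higher and 3436 to 4168 lower, of 18643 to 19191 genes tested in either comparison. Between GSK2830371 and DMSO the count was 0 in both directions under all alternatives run.

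Replicate numbers are shared by the groups, but the correlation of their deviations was not above 0.1 for every pair in any comparison (-0.06 to 0.09 between DMSO and control, 0.05 to 0.10 between GSK2830371 and control, -0.03 to 0.34 between GSK2830371 and DMSO), so they were not treated as pairs. With the replicate block, 4 members were higher and 9 lower with DMSO, 3 higher and 15 lower with GSK2830371, and 0 differed between GSK2830371 and DMSO. Of all 18810 genes, 4994 were then higher and 4595 lower with DMSO, and 4811 higher and 4437 lower with GSK2830371. Each of the 4 control numbers correlated best with its own number in GSK2830371, 2 of 4 did so in DMSO, and 2 of 5 did so between GSK2830371 and DMSO.

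The 23 changes called for single members gave 529 values under the alternatives: 488 kept the call, 41 lost it and 0 reversed. Of the 23, 14 kept it under all 23. The calls lost are those of Irf3, Ifitm3, Rsad2, Oasl2, Xaf1 and Trim25 with DMSO and of Stat2, Trim25 and Oas2 with GSK2830371. The causes were not tested. The family ratios that passed were added after the data were seen. All 182 of their values under alternatives kept their sign, but with fewer libraries the permutation test cannot reach the adjusted threshold. Members of low level, such as Oas3, Mx1 and Cgas, rest on few reads per library, and 4 or 5 mice a group leave wide standard errors for the members that vary most.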

Other observations

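Among the listed pathway genes not described above, a few called genes are given as values, chosen after their values were seen. H2-K1, a classical class I heavy chain, rose from 8279.6 ± 1991 normalised reads in the controls to 40637 ± 14295 with DMSO and 55126 ± 33095 with GSK2830371, at 2.25 (SE 0.37, adjusted p = 0.000202) and 2.57 (SE 0.37, adjusted p = 7.79e-05). Slfn2, a schlafen gene of leukocytes, rose by 1.22 and 0.89 on the log2 scale. Cxcl9, a chemokine that interferon gamma induces, had -2.03 (SE 0.91, adjusted p = 0.0767) and -3.29 (SE 0.91, adjusted p = 0.00859). The difference of Cxcl9 between GSK2830371 and DMSO did not pass (adjusted p = 0.994). Rtp4, a chaperone that interferon induces, fell by 1.24 and 1.24.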
